A study of Mus musculus with 14 samples.

Results

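Astrocytes are the glial cells that take up glutamate and potassium from around synapses, couple to each other through gap junctions and wrap blood vessels with endfeet. In the hypothalamus, which governs appetite and energy use, they lie between the blood supply and the neurons that read glucose and hormones, and they carry receptors for several of those hormones. The genes described here are 33 textbook astrocyte genes, listed by symbol and chosen with earlier results of these data known. Of these, 32 were measured among the 17097 genes tested, each by the probe set that names only that gene and has the highest mean over all arrays. Glul, the gene of glutamine synthetase, was not analysed here.

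Total RNA of whole hypothalami of mice aged 12 weeks was hybridised to Affymetrix arrays, 1 array per sample. Knockout mice (POMCMfn1KO in the labels) lack Mfn1, a protein of mitochondrial fusion, in the neurons that express pro-opiomelanocortin (POMC), and control mice are labelled only as control. All were of a mixed background (C57Bl/6J, FVB/N and 129). Food was either left to them, as random fed mice, or withdrawn for 16 h. The arrays divide into knockout fasted (n = 3), knockout fed (n = 4), control fasted (n = 3) and control fed (n = 4). The labels name neither the Cre driver nor the alleles of the control mice, nor do they say whether an array holds the RNA of 1 mouse. The p-values therefore cover the spread between arrays, which may be technical. The labels place the deletion in POMC neurons, which are few in this tissue, and Mfn1 itself lay between 9.03 and 9.12 on knockout arrays and between 8.99 and 9.10 on control arrays, a difference of 0.01 ± 0.03 (SE, limma adjusted p = 0.999). Whole tissue RNA thus does not check the genotype labels. Of genes that mark hypothalamic neurons, Hcrt, the orexin precursor, lay between 9.71 and 11.27 and Pmch, the precursor of melanin-concentrating hormone, between 12.06 and 12.63 on all arrays.

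All values are log2 expression values as deposited, so a difference of 1 is a doubling. All 32 astrocyte genes had a mean above 4.14, the 95th percentile of the probe sets without a target. In whole tissue, fewer cells of a type and less RNA per cell cannot be told apart. The numbers in the sample titles form a low series, which holds all 6 fasted arrays and knockout fed replicate 1, and a high series with the other 7 fed arrays. Feeding state is thus separated from this numbering by knockout fed replicate 1 alone, and its value is given beside the results.

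After the fast, 13 of the 32 astrocyte genes rose, 3 fell and 16 did not pass the test, averaged over genotypes. The largest rises were in Mertk, a receptor for the engulfment of debris and synapses (1.15 ± 0.13, SE), Htra1, a secreted protease (0.93 ± 0.08), and Prodh, the first enzyme of proline breakdown (0.91 ± 0.09). Common astrocyte markers were found on each side. Aldh1l1 rose (0.33 ± 0.04) and Aqp4, the water channel of the endfeet, fell by 0.36 ± 0.06, while Slc1a2, Slc1a3, Gja1, Gfap and S100b lay between -0.08 and 0.09 and Sox9 at 0.22 ± 0.08, none of which passed.

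These counts come from limma with Benjamini-Hochberg adjustment over all genes tested, at an adjusted p of 0.05. Over all genes, 5.14% were called higher and 4.90% lower in this comparison. The median difference of the 32 genes was 0.08, against 0.00 over all genes, and the standard deviation (SD) of their differences was 0.39, against 0.17 over all genes. Among neuron markers, 0 of 14 passed, with an SD of 0.06 between their differences. No overlap between the 6 fasted and the 8 fed arrays was found for 9 of the 32 genes, each higher after the fast, where 1.92% of all genes were higher without overlap. None of the 32 was lower without overlap, against 1.49% of all genes. Because the genes were chosen with earlier results of these data known, setting them beside all genes is a description and not an independent test.

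**Figure D1:**
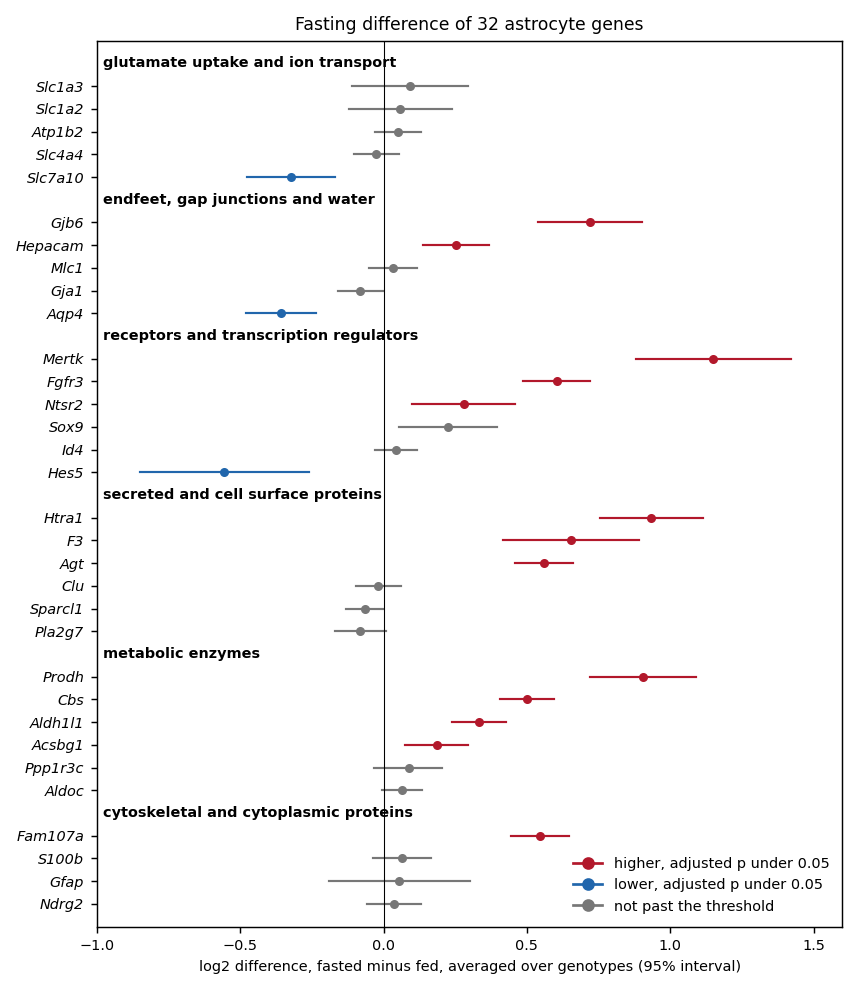
Log2 difference between fasted and fed mice, averaged over genotypes, for 32 astrocyte genes grouped by role; points are the estimates, bars their 95% intervals, red marks the 13 genes that rose, blue the 3 that fell and grey the 16 that did not pass. The differences run from -0.56 for Hes5 to 1.15 for Mertk, and every role group holds grey genes.

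Among genes of glutamate uptake and ion transport 0 of 5 rose and 1 fell, with a median of 0.05. Slc1a2 encodes the main glutamate transporter of astrocytes. It was at 7.35, 7.20 and 7.40 in knockout fasted mice, against 7.21, 7.39, 7.53 and 7.17 in knockout fed mice, and at 7.34, 7.51 and 7.45 in control fasted mice, against 7.46, 7.47, 6.98 and 7.32 in control fed mice. The 4 groups overlapped throughout, and the averaged difference was 0.06 ± 0.08 (SE, limma adjusted p = 0.706, 95% interval -0.12 to 0.24).

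Slc1a3, the second astrocyte glutamate transporter, was at 6.08, 5.64 and 5.35 in knockout fasted mice, against 5.71, 5.67, 5.67 and 5.46 in knockout fed mice, and at 5.59, 5.85 and 5.85 in control fasted mice, against 5.68, 5.71, 5.55 and 5.62 in control fed mice. Knockout fasted mice held both the highest and the lowest of these values, and the difference was 0.09 ± 0.09 (limma adjusted p = 0.584). The bicarbonate cotransporter gene Slc4a4 (-0.03 ± 0.04) and Atp1b2, a subunit of the sodium pump (0.05 ± 0.04), did not pass either. The 4 probe sets of Slc4a4 disagreed, with differences from -0.27 to 0.24, the last of them from a probe set with a mean of 3.87, below the bound for background.

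Slc7a10, the transporter Asc-1 of D-serine, glycine and other small neutral amino acids, was the member of this group that fell. It was at 8.93, 8.63 and 8.72 in knockout fasted mice, against 9.06, 9.14, 9.03 and 9.24 in knockout fed mice, and at 8.62, 8.56 and 8.87 in control fasted mice, against 8.78, 8.93, 9.11 and 9.07 in control fed mice. Fasted means were lower in both genotypes, and the feeding states overlapped between 8.78 and 8.93, where knockout fasted replicate 1, control fasted replicate 3 and control fed replicates 1 and 2 lay. The averaged difference was -0.32 ± 0.07 (limma adjusted p = 0.0135), and within the low number series knockout fasted mice differed from knockout fed replicate 1 by -0.30.

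The genes of endfeet, gap junctions and water channels split 3 ways: 2 of 5 rose, 1 fell and 2 did not pass. Astrocyte gap junctions are built mainly from the connexins that Gja1 and Gjb6 encode. Gjb6 was at 10.43, 10.63 and 10.05 in knockout fasted mice, against 9.75, 9.72, 9.80 and 10.02 in knockout fed mice, and at 10.49, 10.50 and 10.73 in control fasted mice, against 9.59, 9.79, 9.69 and 9.65 in control fed mice. Every fasted array lay above every fed array, with knockout fasted replicate 3 the closest to the fed range. The averaged difference was 0.72 ± 0.08, a fold of 1.65 (limma adjusted p = 0.000329). Gja1 was at 11.75, 11.74 and 11.72 in knockout fasted mice, against 11.89, 11.76, 11.81 and 11.91 in knockout fed mice, and at 11.80, 11.76 and 11.80 in control fasted mice, against 11.78, 11.82, 11.88 and 11.89 in control fed mice. Its groups overlapped, with a difference of -0.08 ± 0.04 (limma adjusted p = 0.175, 95% interval -0.16 to -0.00), so these 2 connexin genes had intervals that did not meet. Its 5 probe sets gave differences from -0.23 to -0.02.

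Aqp4 was at 10.34, 10.33 and 10.23 in knockout fasted mice, against 10.58, 10.68, 10.71 and 10.44 in knockout fed mice, and at 10.29, 10.23 and 10.44 in control fasted mice, against 10.85, 10.78, 10.60 and 10.70 in control fed mice. The highest fasted and the lowest fed array were both at 10.44, and the other arrays were separated by feeding state. The averaged difference was -0.36 ± 0.06, a fold of 0.781 (limma adjusted p = 0.00226), and its 3 probe sets gave differences from -0.66 to -0.36. Hepacam (GlialCAM) and Mlc1 encode partner proteins of the endfoot membrane. Hepacam was at 8.74, 9.07 and 8.88 in knockout fasted mice, against 8.74, 8.64, 8.61 and 8.73 in knockout fed mice, and at 8.93, 8.85 and 9.06 in control fasted mice, against 8.64, 8.67, 8.61 and 8.70 in control fed mice. Fasted arrays were higher except knockout fasted replicate 1, which equalled knockout fed replicate 1, and the difference was 0.25 ± 0.05 (limma adjusted p = 0.0104). The other Hepacam probe set gave 0.10 ± 0.07. Mlc1 was at 0.03 ± 0.04.

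**Figure D2:**
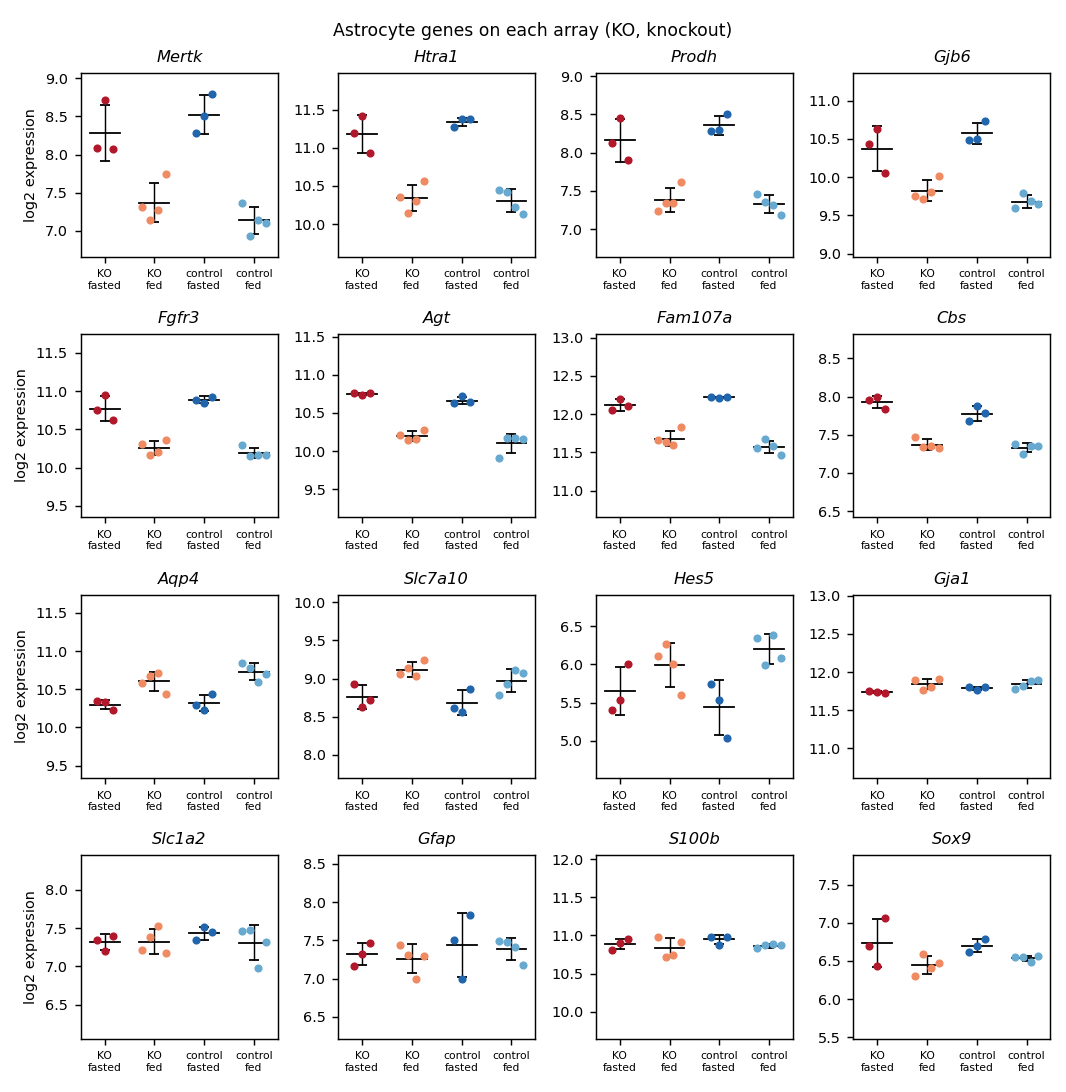
Log2 expression of 16 astrocyte genes on each array; points are arrays, horizontal lines group means and bars SD (n = 3 for the fasted and 4 for the fed groups), and every panel spans the same height. Mertk, Htra1, Prodh, Gjb6, Fgfr3, Agt, Fam107a and Cbs show no overlap between fasted and fed arrays, Aqp4 meets at 10.44, and Gja1, Slc1a2, Gfap and S100b overlap.

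Receptors and transcription regulators held the widest range, with 3 of 6 higher and 1 lower and a median of 0.25. Mertk was at 8.08, 8.71 and 8.07 in knockout fasted mice, against 7.31, 7.15, 7.28 and 7.74 in knockout fed mice, and at 8.28, 8.50 and 8.79 in control fasted mice, against 7.36, 6.94, 7.15 and 7.11 in control fed mice. All fasted arrays lay above all fed arrays, and the highest fed one was knockout fed replicate 4. The difference was 1.15 ± 0.13, a fold of 2.22 (limma adjusted p = 0.000185). Mertk is also expressed by microglia, of whose markers 0 of 11 rose and 5 fell, with a mean score (log2 values centred over the arrays) between -0.31 and -0.02 in fasted mice and between -0.02 and 0.23 in fed mice. Over all genes, 5.14% were called higher and 4.90% lower in this comparison. The part of microglia in the Mertk result was not tested.

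Fgfr3, a fibroblast growth factor receptor of astrocytes, was at 10.75, 10.95 and 10.62 in knockout fasted mice, against 10.31, 10.16, 10.20 and 10.36 in knockout fed mice, and at 10.89, 10.84 and 10.93 in control fasted mice, against 10.29, 10.15, 10.17 and 10.17 in control fed mice. Fasted and fed arrays did not overlap, and the difference was 0.60 ± 0.05 (limma adjusted p = 3.49e-05). Ntsr2, the astrocytic neurotensin receptor, was at 11.17, 11.08 and 11.32 in knockout fasted mice, against 11.16, 10.78, 10.77 and 11.17 in knockout fed mice, and at 11.35, 11.42 and 11.17 in control fasted mice, against 10.88, 11.11, 10.82 and 11.09 in control fed mice. Its groups overlapped, and the difference of 0.28 ± 0.08 passed only just (limma adjusted p = 0.0499). It passed in 6 of 24 alternative fits, and 4 of the 8 fed arrays, knockout fed replicate 1 among them at 11.16, lay within the range of fasted mice.

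The transcription factor gene Sox9, which specifies and maintains astrocytes, was at 6.70, 6.44 and 7.06 in knockout fasted mice, against 6.31, 6.59, 6.41 and 6.48 in knockout fed mice, and at 6.62, 6.69 and 6.79 in control fasted mice, against 6.55, 6.55, 6.49 and 6.56 in control fed mice. Knockout fasted replicate 3 was the highest array and the difference of 0.22 ± 0.08 did not pass (limma adjusted p = 0.0927, unadjusted p = 0.0143). Id4, a regulator that keeps glial progenitors from differentiating, was at 0.04 ± 0.03.

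Hes5, a repressor that Notch signalling induces in glial progenitors and astrocytes, fell. It was at 5.40, 5.54 and 6.00 in knockout fasted mice, against 6.11, 6.27, 6.01 and 5.60 in knockout fed mice, and at 5.74, 5.54 and 5.04 in control fasted mice, against 6.34, 5.99, 6.39 and 6.08 in control fed mice. Knockout fasted replicate 3 lay at the level of the lower fed arrays, knockout fed replicate 4 lay within the fasted range, and control fasted replicate 3 was the lowest. The difference was -0.56 ± 0.14, a fold of 0.68 (limma adjusted p = 0.0223). Without control fasted replicate 3, knockout fasted replicate 1 or knockout fasted replicate 2 the adjusted p was 0.0521, 0.0553 and 0.0602. Its promoter is shown because Notch acts through RBPJ, which binds the letters TGGGAA. The sequence runs from 250 bases before to 50 after the start of the gene and is RefSeq's, of GRCm38.p6 at chr4:154960673-154960972, plus strand. Capitals mark TGGGAA on this strand and, read on the other strand, TTCCCA.
Hes5: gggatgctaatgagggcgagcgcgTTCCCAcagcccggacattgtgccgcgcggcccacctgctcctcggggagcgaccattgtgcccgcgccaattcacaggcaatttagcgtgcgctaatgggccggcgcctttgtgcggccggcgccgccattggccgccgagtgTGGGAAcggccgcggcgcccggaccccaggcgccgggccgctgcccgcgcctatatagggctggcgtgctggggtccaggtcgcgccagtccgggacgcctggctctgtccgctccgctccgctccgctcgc
The matches begin at -226 and -82 relative to the start. One match or more was found in 28.3% of all genes with such a window and in 11 of the 27 measured astrocyte genes with one.

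Of 6 genes for secreted and cell surface proteins, 3 rose and 0 fell, with a median of 0.27. Htra1 was at 11.19, 11.42 and 10.93 in knockout fasted mice, against 10.36, 10.15, 10.30 and 10.56 in knockout fed mice, and at 11.27, 11.37 and 11.37 in control fasted mice, against 10.45, 10.42, 10.23 and 10.13 in control fed mice. The lowest fasted array, knockout fasted replicate 3, was above the highest fed array, knockout fed replicate 4. The difference was 0.93 ± 0.08, a fold of 1.91 (limma adjusted p = 3.49e-05).

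Agt encodes angiotensinogen, the precursor of the angiotensins, which the brain makes mostly in astrocytes. It was at 10.76, 10.74 and 10.76 in knockout fasted mice, against 10.21, 10.14, 10.16 and 10.28 in knockout fed mice, and at 10.63, 10.72 and 10.64 in control fasted mice, against 9.91, 10.17, 10.17 and 10.16 in control fed mice. The knockout fasted arrays were close together and above all others, and control fed replicate 1 was the lowest of all. The difference was 0.56 ± 0.05, a fold of 1.47 (limma adjusted p = 2.7e-05), with 0.56 ± 0.07 in knockout and 0.56 ± 0.07 in control mice (95% interval of the interaction -0.21 to 0.20). F3, tissue factor, the cell surface starter of blood clotting, was at 9.14, 9.66 and 8.89 in knockout fasted mice, against 8.82, 8.71, 8.67 and 9.10 in knockout fed mice, and at 9.36, 9.72 and 9.70 in control fasted mice, against 8.77, 8.62, 8.66 and 8.71 in control fed mice. Control fasted mice were above all fed mice, while knockout fasted replicate 3 lay below knockout fed replicate 4. The difference was 0.65 ± 0.11 (limma adjusted p = 0.00321).

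The other secreted proteins, Sparcl1 (hevin, which promotes synapse formation), Clu (clusterin, a chaperone found outside cells) and Pla2g7 (which breaks down platelet-activating factor), had differences of -0.07 ± 0.03, -0.02 ± 0.04 and -0.08 ± 0.04 and did not pass. Clu is also strongly expressed by ependyma and choroid plexus.

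Of 6 metabolic enzymes 4 rose and 0 fell, with a median of 0.26. Prodh was at 8.13, 8.45 and 7.90 in knockout fasted mice, against 7.24, 7.34, 7.34 and 7.61 in knockout fed mice, and at 8.28, 8.30 and 8.50 in control fasted mice, against 7.46, 7.35, 7.32 and 7.18 in control fed mice. Fasted and fed arrays did not overlap, and the difference was 0.91 ± 0.09, a fold of 1.87 (limma adjusted p = 5.95e-05). Cbs, the enzyme that joins homocysteine and serine, was at 7.96, 7.99 and 7.84 in knockout fasted mice, against 7.47, 7.34, 7.35 and 7.33 in knockout fed mice, and at 7.68, 7.87 and 7.78 in control fasted mice, against 7.38, 7.25, 7.35 and 7.35 in control fed mice. The fasted arrays were again all higher. Knockout fed replicate 1 was the highest of the fed ones, at 7.47. The difference was 0.50 ± 0.04 (limma adjusted p = 3.47e-05).

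Aldh1l1, a folate enzyme and a marker of nearly all astrocytes, was at 8.95, 8.95 and 8.87 in knockout fasted mice, against 8.73, 8.69, 8.51 and 8.69 in knockout fed mice, and at 9.10, 8.96 and 9.07 in control fasted mice, against 8.69, 8.68, 8.65 and 8.57 in control fed mice. The ranges were separate, and the difference was 0.33 ± 0.04 (limma adjusted p = 0.000753). The other Aldh1l1 probe set, with a mean of 4.26, gave 0.14 ± 0.06. Acsbg1, an acyl-CoA synthetase of long fatty acids, was at 9.38, 9.28 and 9.40 in knockout fasted mice, against 9.34, 9.26, 9.10 and 9.23 in knockout fed mice, and at 9.47, 9.37 and 9.49 in control fasted mice, against 9.06, 9.33, 9.21 and 9.18 in control fed mice. Its groups overlapped, and its difference of 0.19 ± 0.05 (limma adjusted p = 0.0359) held in 9 of 24 alternative fits. Within the low number series, knockout fasted mice exceeded knockout fed replicate 1 by only 0.01 for Acsbg1 and 0.03 for Ntsr2.

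Aldoc, the brain form of aldolase, was at 0.07 ± 0.03 with its brighter probe set and at 0.43 ± 0.06 with its other one, so its 2 probe sets disagree in size. Ppp1r3c, which targets a phosphatase to glycogen, the fuel store of astrocytes, was at 0.09 ± 0.06 and did not pass.

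Among 4 cytoskeletal and cytoplasmic proteins, 1 rose and 0 fell, with a median of 0.06. Fam107a, an actin-binding protein known to be induced by glucocorticoids, was at 12.05, 12.20 and 12.11 in knockout fasted mice, against 11.66, 11.63, 11.60 and 11.83 in knockout fed mice, and at 12.23, 12.21 and 12.22 in control fasted mice, against 11.55, 11.67, 11.58 and 11.47 in control fed mice. Every fasted array lay above every fed array. The difference was 0.55 ± 0.05 (limma adjusted p = 2.7e-05), and its other 2 probe sets gave 0.75 and 1.15. Its promoter is shown because, of the 27 measured astrocyte genes with such a window, it alone held the palindrome (GNACA, any 3 bases, then TGTNC, with N for any base) to which the glucocorticoid receptor binds. The palindrome reads alike on both strands, and 0.537% of all genes held it. The window, RefSeq's for GRCm38.p6 at chr14:8309730-8310029, minus strand, begins 250 bases before one of the starts given for the gene. The palindrome, in capitals, begins at -118 relative to that start.
Fam107a: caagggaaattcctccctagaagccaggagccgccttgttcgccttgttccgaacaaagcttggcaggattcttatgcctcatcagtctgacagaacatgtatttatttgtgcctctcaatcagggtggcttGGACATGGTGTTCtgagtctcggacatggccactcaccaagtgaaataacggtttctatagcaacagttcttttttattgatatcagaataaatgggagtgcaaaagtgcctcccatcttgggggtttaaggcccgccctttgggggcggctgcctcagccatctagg
Such a match is a description of the letters, and no binding was measured here.

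Gfap, the intermediate filament that rises in reactive astrocytes, was at 7.17, 7.32 and 7.46 in knockout fasted mice, against 7.44, 7.31, 7.00 and 7.29 in knockout fed mice, and at 7.50, 7.00 and 7.83 in control fasted mice, against 7.49, 7.48, 7.41 and 7.18 in control fed mice. Control fasted mice held the highest value and, together with knockout fed replicate 3, the lowest, and the difference was 0.06 ± 0.11 (limma adjusted p = 0.808, 95% interval -0.19 to 0.30). S100b, a calcium-binding protein of astrocytes, was at 10.81, 10.90 and 10.95 in knockout fasted mice, against 10.98, 10.72, 10.75 and 10.91 in knockout fed mice, and at 10.98, 10.88 and 10.98 in control fasted mice, against 10.83, 10.87, 10.89 and 10.87 in control fed mice. Its groups overlapped, with a difference of 0.06 ± 0.05 (limma adjusted p = 0.426). Ndrg2, a cytoplasmic protein of astrocytes, was at 0.04 ± 0.04. A pair of promoters sets Agt, which rose, beside Gfap, which did not pass. Both windows hold the letters TTCNNNGAA, which STAT factors bind and which read alike on both strands; capitals mark them. They are RefSeq's for GRCm38.p6, at chr8:124569657-124569956, minus strand, for Agt and at chr11:102897151-102897450, minus strand, for Gfap.
Agt: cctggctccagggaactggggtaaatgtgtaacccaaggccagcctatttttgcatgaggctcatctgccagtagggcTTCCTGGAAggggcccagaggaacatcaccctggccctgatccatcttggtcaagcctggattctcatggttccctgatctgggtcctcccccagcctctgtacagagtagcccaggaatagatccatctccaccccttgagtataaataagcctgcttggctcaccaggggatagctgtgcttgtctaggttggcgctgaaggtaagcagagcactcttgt
Gfap: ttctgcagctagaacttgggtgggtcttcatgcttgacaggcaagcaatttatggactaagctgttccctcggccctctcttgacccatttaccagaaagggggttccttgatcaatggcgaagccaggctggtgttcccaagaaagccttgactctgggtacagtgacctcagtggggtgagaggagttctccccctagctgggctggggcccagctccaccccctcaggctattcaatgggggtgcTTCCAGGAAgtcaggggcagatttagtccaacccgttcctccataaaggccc
The match begins at -172 relative to the start in Agt and at -2 in Gfap. This palindrome was in 9.55% of all genes with a window and in 8 of the 27 astrocyte genes, namely Acsbg1, Agt, Ntsr2 and Prodh, which rose, and Aldoc, Gfap, Pla2g7 and Slc1a3, which did not pass.

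Of the 16 genes that did not pass, 11 had a 95% interval wholly within 0.2 of no difference, a bound chosen after the values were seen. The differences of the 16 lay between -0.08 and 0.22, and 3 had an unadjusted p under 0.05, namely Sox9, Gja1 and Sparcl1. These intervals are those of the brightest probe set of each gene. Among the 11, other probe sets reached 0.43 ± 0.06 for Aldoc, -0.27 ± 0.07 for Slc4a4 and -0.23 ± 0.06 for Gja1. Those of Atp1b2, Clu, Id4 and S100b lay between -0.05 and 0.08. Relative to the mean of the 32 genes on each array, 10 rose and 14 fell, where 12448 of all 17097 genes passed in either direction. After that shift the median of all genes was -0.21, and centring on the mean of the 32 genes itself places some of them on each side of it. On this scale Htra1 stood at 0.72 ± 0.07 and Mertk at 0.93 ± 0.12, while Gja1 stood at -0.30 ± 0.04 and Aqp4 at -0.57 ± 0.06, and Acsbg1, called higher without the shift, stood at -0.03.

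The numbering of the samples bears on these calls. The 9 genes without overlap were picked for having every fed array, knockout fed replicate 1 included, below every fasted array. That choice fixed in advance the side on which this array lay and the sign of its differences for these genes. For 7 of the 9 genes, knockout fed replicate 1, whose number is in the series of the fasted arrays, lay within the range of the other fed ones. Within that series, the mean of knockout fasted mice exceeded this array by 0.98 for Mertk, 0.92 for Prodh, 0.82 for Htra1, 0.62 for Gjb6, 0.54 for Agt, 0.46 for Fgfr3 and 0.46 for Fam107a. For the other 2 it lay above the other fed arrays and below every fasted array, and those differences were 0.46 for Cbs and 0.19 for Aldh1l1. Among called genes outside that choice, the differences were 0.41 for F3, 0.16 for Hepacam, 0.03 for Ntsr2 and 0.01 for Acsbg1. They were -0.28 for Aqp4, -0.30 for Slc7a10 and -0.46 for Hes5. For Hepacam and Acsbg1 this array lay above the remaining fed arrays and within the fasted range. For F3, Ntsr2, Aqp4, Slc7a10 and Hes5 it lay within the range of the remaining fed arrays. With the number series as a covariate, which rests on this 1 array, 0 of 32 passed (lowest limma adjusted p = 0.0558, for Prodh), and 15 of all genes did. All 16 called genes kept their sign in that fit, as did 10 of the 16 not called. The called genes were chosen from these same arrays, this one included, which favours a kept sign.

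In control mice alone (n = 3 fasted, 4 fed), 10 of 32 genes rose and 1 fell, where 1.64% of all genes were called higher and 1.12% lower. Mertk differed by 1.38 ± 0.18, Prodh by 1.03 ± 0.12, Htra1 by 1.03 ± 0.12, F3 by 0.90 ± 0.16 and Gjb6 by 0.89 ± 0.12. Fgfr3 (0.69), Fam107a (0.65), Agt (0.56), Cbs (0.44) and Aldh1l1 (0.40) rose as well, and Aqp4 fell by 0.41 ± 0.08. Aqp4 did not pass without control fasted replicate 1 (limma adjusted p = 0.0556) or 2 (0.0613). No control array separates the fast from the number series.

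In knockout mice (n = 3 fasted, 4 fed), 7 of 32 genes rose and 0 fell, where 0.468% of all genes were called higher and 0.228% lower. At an unadjusted p under 0.05 there were 14 of 32 in either direction, and 2816 of all 17097 genes. The 7 were Mertk (0.92 ± 0.18), Htra1 (0.84 ± 0.12), Prodh (0.78 ± 0.12), Cbs (0.56 ± 0.06), Agt (0.56 ± 0.07), Fgfr3 (0.52 ± 0.08) and Fam107a (0.44 ± 0.07). All 7 had passed in control mice too. Gjb6 stood at 0.55 ± 0.12 (limma adjusted p = 0.0565) and Aqp4 at -0.30 ± 0.08 (0.0994). Without knockout fasted replicate 2, which was the highest knockout array for Mertk, Htra1, Prodh, Gjb6, F3 and Fgfr3, 3 genes passed. With only the 2 knockout groups in the fit 2 passed, and 2 with the 3' to 5' difference of the control probe sets as a covariate. Counts over all genes were not made for knockout mice in these fits.

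**Figure D3:**
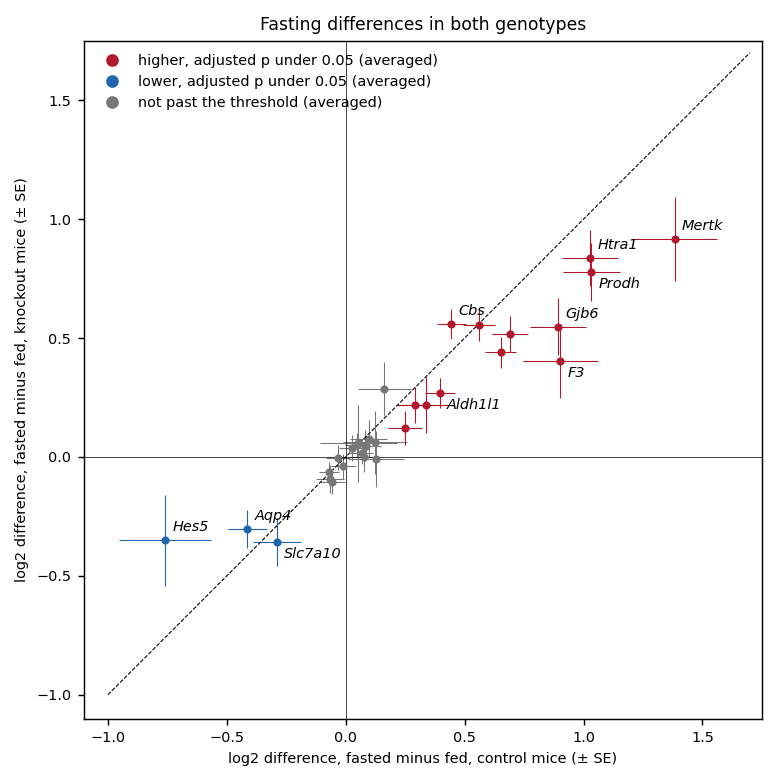
Log2 difference between fasted and fed mice in knockout mice (vertical axis) and in control mice (horizontal axis) for 32 astrocyte genes; bars are SE, colours give the call averaged over genotypes, and the dashed line marks equal differences. Mertk lies at 0.92 in knockout and 1.38 in control mice, Agt on the line at 0.56 in both, and the 16 called genes have the same sign in both genotypes. Those 16 were called on the mean of both differences, which favours a shared sign.

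The fasting differences of knockout and control mice were then set against each other. All 16 genes called on average had the same sign in both genotypes. They were called on the mean of both differences, which favours a shared sign, so the genotypes are not independent here. For 14 of the 16 the difference was smaller in size in knockout mice, with Agt counted at 0.556 against 0.561 in control mice. The share of all genes with a smaller difference in knockout mice was not counted, and all members come from the same arrays. The difference between genotypes itself did not pass for any of the 32 (interaction term in limma, lowest adjusted p = 1), and 0% of all genes passed. At an unadjusted p under 0.05 there were 2 of 32, F3 (-0.50 ± 0.22) and Fam107a (-0.21 ± 0.09), and 654 of all genes. For Mertk the interaction was -0.47 ± 0.25, with a 95% interval of -1.01 to 0.08.

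Knockout and control mice did not differ in any astrocyte gene past the threshold, whether averaged over feeding states, in fed mice or in fasted mice. In limma 0 of 32 genes passed in each, where 0.00585%, 0.00585% and 0% of all genes did, and at an unadjusted p under 0.05 there were 1, 0 and 2 of 32, and 795, 790 and 661 of all 17097 genes. The 1 was Cbs, at 0.10 ± 0.04 (limma adjusted p = 0.999), and in fasted mice it was Cbs (0.15 ± 0.07) and F3 (-0.36 ± 0.17). Averaged differences lay between -0.13 for Gfap and 0.11 for Slc7a10, and their 95% intervals between -0.37 and 0.30. Gfap thus had -0.13 ± 0.11, Aqp4 -0.08 ± 0.06, Gja1 -0.03 ± 0.04 and Slc1a2 -0.05 ± 0.08. The choroid plexus score, which ran from -1.40 to 1.56 over all arrays, was lowest in knockout mice in replicate 1 of the fed group (-1.25), with the other 6 knockout arrays at 0.64 or more, and among control arrays was above 0 in fed replicate 1 alone (0.75). Its part in the astrocyte values was not tested beyond a fit with it as a covariate, in which 12 of 32 genes rose and 3 fell after the fast. In that fit 1784 of all 17097 genes passed in either direction, against 1715 without the covariate.

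A list of other astrocyte genes also held calls in both directions. Of 44 measured, 8 rose and 7 fell after the fast, with a median of 0.03 and an SD of 0.31 between genes. Over all genes, 5.14% were called higher and 4.90% lower. Cyp2d22 rose by 0.44 ± 0.05, Cyp4f14, an enzyme of lipid oxidation, by 0.42 ± 0.06 and Fzd2, a Wnt receptor, by 0.88 ± 0.14, while Ednrb, the endothelin B receptor, fell by 0.57 ± 0.10. For Fzd2 the 6 fasted arrays, between 6.96 and 7.83, did not overlap the 8 fed arrays, between 6.20 and 6.82. Of 23 genes of reactive astrocytes 1 rose and 4 fell, with a median of -0.04, beside the same shares over all genes. The serpin gene Serpina3n rose by 0.36 ± 0.08, and Gbp2 and Psmb8, which interferons induce, fell by 0.84 ± 0.13 and 0.58 ± 0.13. Tm4sf1 fell by 0.38 ± 0.09, as did Hspb1, a small heat shock protein, by 0.56 ± 0.15. Lcn2, like Hspb1 named after its value was seen, had a mean of 3.86, within the range of probe sets without a target.

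A list score, the mean of a list's log2 values each centred over the 14 arrays, was between 0.06 and 0.20 in fasted mice and between -0.13 and -0.05 in fed mice for the 32 astrocyte genes. For the 44 other astrocyte genes it was between 0.01 and 0.04 in fasted and between -0.07 and 0.07 in fed mice, and for neurons between -0.05 and 0.04 in fasted and between -0.03 and 0.06 in fed mice. The oligodendrocyte score lay between -0.34 and 0.09 in fasted and between 0.01 and 0.18 in fed mice, and the tanycyte score between -0.11 and 0.05 in fasted and between -0.13 and 0.19 in fed mice. Of the markers behind them, 2 of 11 rose and 3 fell for oligodendrocytes and 2 of 11 rose and 0 fell for tanycytes, glia of the third ventricle that share many astrocyte genes. The shares over all genes were 5.14% higher and 4.90% lower. The part of oligodendrocytes and tanycytes in the astrocyte results was not tested. Control fed replicate 1 and knockout fed replicate 4 had the highest scores for cortex and hippocampus, 0.77 and 0.32, against 0.01 or less elsewhere. Without both, 11 of 32 astrocyte genes rose and 3 fell, and 1492 of all genes passed in either direction, against 1715 with all arrays.

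**Figure D4:**
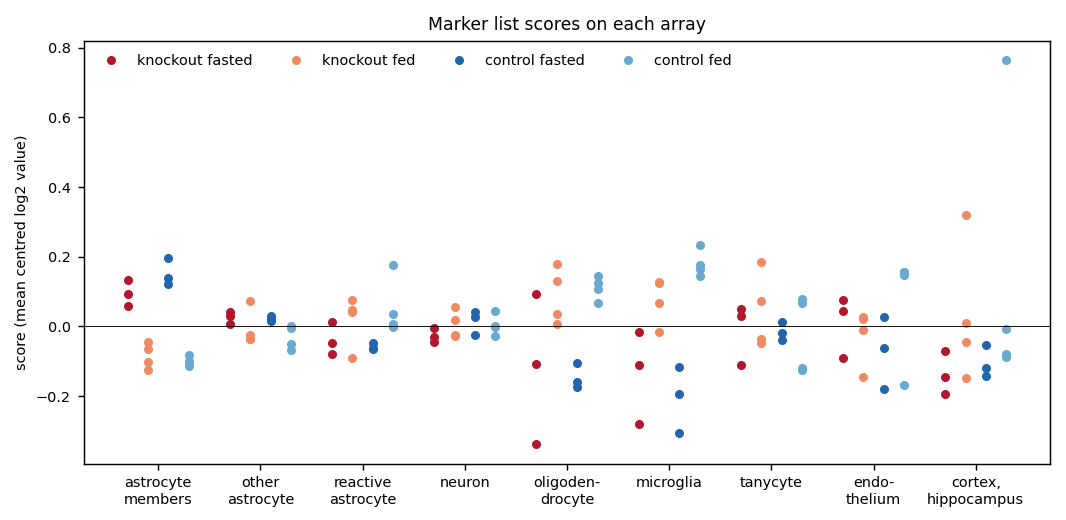
Score of 9 marker lists on each array, the mean of the members' log2 values after each was centred over the 14 arrays; points are arrays, coloured by group. The 32 astrocyte genes are above 0 in all 6 fasted and below 0 in all 8 fed arrays, neuron markers stay between -0.05 and 0.06, and control fed replicate 1 stands at 0.77 for cortex and hippocampus.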

How the data were processed

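Hypothalamic RNA was measured on 14 single-colour arrays. As deposited, the authors' values are on the log2 scale. The submitters' processing notes name RMA and affy, whose versions are not given in the sources used here. RMA corrects background, equalises the arrays' distributions and summarises probes, so shifts common to all genes are removed. Array medians lay between 4.98 and 5.05, and correlations between arrays were 0.9908 or more. The number of arrays limits the precision.

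Probe sets were named from the platform annotation: 28898 named 1 gene, 551 several and 15692 none. Of a gene's probe sets the one brightest on average over all arrays was used. Groups came from the labels. limma 3.58.1 in R 4.3.3 fitted 1 mean per group over all arrays, with Benjamini-Hochberg adjustment over 17097 genes, two-sided. The fit was tested on simulated data. Alternatives were a filter on low genes, the mean of probe sets, another prior, array centring, a shift by the astrocyte score, covariates, only the groups compared and leaving out each array. Values per array are given for astrocyte genes called in any comparison and for textbook markers. Of the lists of other and of reactive astrocyte genes, the 4 called genes with the smallest p are named with their differences, and Hspb1 besides. Other lists are given by counts and scores. The members and lists were chosen with earlier results of these data known, and the promoter motifs after the values were seen. Promoter windows (RefSeq, GRCm38.p6) were found for 27 of the 32 genes. Markers of cell types were read as lists, since no cells were counted.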

Additional observations from a re-analysis of the deposited data

Results flagged for a closer look

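For the 32 astrocyte genes and their mean score, 66 sets of 4 fed arrays were examined for 1 array apart from the other 3, and 6 had a gap to the nearest array that exceeded Dixon's 95% critical value as a share of the whole range. Chance alone marks about 5% of such sets. In control fed mice, replicate 1 stood apart for Agt (9.91, against 10.16 to 10.17, gap 0.962 of the range), Fgfr3 (10.29, against 10.15 to 10.17, 0.857) and Aldoc (12.76, against 12.79, a ratio of 1), and replicate 3 for Sox9 (6.49, against 6.55 to 6.56, 0.857). In knockout fed mice, replicate 1 stood apart for Cbs (7.47, against 7.33 to 7.35, 0.857) and replicate 4 for Slc1a3 (5.46, against 5.67 to 5.71, 0.84). Control fed replicate 1 and knockout fed replicate 4 are the arrays with the highest cortex and hippocampus scores, and knockout fed replicate 1 is the fed array in the low number series.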

How the results depend on the processing

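Averaged over genotypes, 13 astrocyte genes rose and 3 fell. With 1 array left out, 11 to 13 rose and 2 to 3 fell. Of all genes, 1715 passed in either direction with all arrays. With 1 left out, between 998 (without knockout fasted replicate 2) and 2120 (without knockout fasted replicate 3) passed. Counts over all genes in the alternative fits were made for the average alone. With the number series as a covariate 0 rose and 0 fell in the average, 0 and 0 in control mice, and 0 rose in knockout mice. With the trended prior 5 fell in the average, 2 in control and 2 in knockout mice, and 2137 of all genes passed in the average, in either direction. Relative to the astrocyte score 14, 14 and 8 fell, where 12448 of all genes passed in the average, in either direction. That shift turned the sign of Acsbg1 (-0.032), called higher without it, and of 10 genes not called without it: Atp1b2 (-0.167), Mlc1 (-0.184), Id4 (-0.174), Aldoc (-0.151), S100b (-0.152) and Ndrg2 (-0.179), which passed as lower, and Slc1a2 (-0.158), Slc1a3 (-0.123), Ppp1r3c (-0.13) and Gfap (-0.161), which did not pass. In control mice 2 fell without the 40% dimmest genes and 2 with the mean of probe sets, which gave 1 in knockout mice, and leaving out 1 array gave 0 (without control fasted replicate 2) to 2 (without knockout fasted replicate 3 or knockout fed replicate 4). In knockout mice 2 rose with the 3' minus 5' covariate, 2 with only the groups compared, and 3 to 8 with 1 array left out. The cause of these other changes was not tested. The choroid plexus covariate and the fit without 2 arrays were chosen after seeing the data. Hepacam passed in 22 of 24 alternatives, Hes5 in 19, Acsbg1 in 9 and Ntsr2 in 6. No paired analysis was possible because no number occurs in more than one sample title. Groups of 3 and 4 arrays limit the genotype and interaction tests, with residual SDs of 0.03 to 0.29.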
